A study of Mus musculus with 6 samples.

Results

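MHC class I and immunoproteasome genes were followed in the mouse esophagus after treatment with an antibody that activates GITR, a co-stimulatory receptor of T cells. The set holds 10 genes, chosen by name for their role in class I antigen presentation: the heavy chains H2-K1 and H2-D1, the light chain B2m, the peptide transporter genes Tap1 and Tap2, the loading factor Tapbp, the immunoproteasome subunits Psmb8, Psmb9 and Psmb10, and the transactivator Nlrc5. All 10 were found by symbol among 54232 gene IDs, and all 10 passed the filter on low counts that left 15763 genes.

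Every mouse in the study had taken the carcinogen 4-nitroquinoline 1-oxide (4-NQO), so that both groups were exposed to it and no unexposed tissue enters the comparison. Mice began at an age of 8 weeks, drank 4-NQO at 100 µg/ml for 16 weeks and plain water for 12 weeks, and were given 10 µg of antibody into the peritoneum 2 times a week over the last 2.5 weeks. One group received DTA-1, the GITR agonist, and the other an isotype antibody. Each group has 3 polyA RNA libraries, made from peeled esophagus enriched for invading cells, and the comparison asks how this tissue differs after GITR agonism. The sources used here give neither the strain nor the sex of the mice. They also leave unsaid whether a library is 1 mouse, so the p-values below describe the spread of these libraries and may hold technical spread.

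MHC class I molecules carry short peptides from inside the cell to its surface, where CD8 T cells read them. The proteasome cuts proteins into peptides, the TAP transporter moves these into the endoplasmic reticulum, and tapasin holds the empty class I molecule beside TAP until a peptide binds. Interferon gamma raises most of these genes, exchanges the constitutive catalytic subunits of the proteasome for the inducible ones, and acts in part through NLRC5, which works at the promoters of class I genes. Loss of class I is a known way for tumors to escape CD8 T cells.

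The libraries held 23147873 to 29065162 counts, and 3 reads of a gene stood for 0.108 to 0.141 CPM (reads of a gene relative to the TMM-scaled total of its library), a floor that covers counting error only. The tissue had its labelled epithelium in every library, with summed CPM of 3237 to 16510 for 7 basal squamous markers. It also held striated muscle, with summed CPM of 40870 to 132800 over 11 markers, of which none was at 0 in any library. Isotype library 3 and DTA-1 library 1 resembled each other more than either resembled its own group. Their median chi-square per gene was 3.98, the smallest of all pairs, against 5.75 for DTA-1 libraries 2 and 3 and 6.46 for isotype libraries 1 and 2.

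Most of the members sit in the MHC region of chromosome 17. On GRCm38 (mm10), H2-K1 lies on chromosome 17 from 33996017 to 34000347 on the minus strand, and H2-D1 from 35262730 to 35267499 on the plus strand. Between them stand Psmb9 (34181987 to 34187764, minus strand), Tap1 (34187553 to 34197225, plus strand), Psmb8 (34197721 to 34201454, plus strand) and Tap2 (34203527 to 34216321, plus strand). Tapbp lies just outside this interval, from 33915899 to 33929292 on the plus strand. B2m is on chromosome 2 (122147686 to 122153083, plus strand), while Psmb10 (105935735 to 105938444, minus strand) and Nlrc5 (94434356 to 94527272, plus strand) are both on chromosome 8.

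Promoter sequence is shown for the 3 genes that encode the class I molecule itself, because class I promoters share a module of X and Y boxes on which NLRC5 acts, and because these genes had similar profiles across the libraries. RefSeq promoter windows on GRCm38.p6, from 250 bases before to 50 after the gene start, held 8 of the 10 genes, all but Tap2 and Nlrc5. A search on both strands for TGACG (the core of the X2 box) followed by ATTGG (the Y box, CCAAT read on the other strand), with their starts 25 bases apart, matched B2m, H2-D1 and H2-K1 and no other of these 8. The same pair stood in 31 of 32851 promoter windows of that length, or 0.0944%. These stretches run 5′ to 3′ on the strand of the gene, with both boxes in capitals. B2m's stretch is at chr2:122147609-122147638 on the plus strand, H2-K1's at chr17:34000359-34000388 on the minus strand, and H2-D1's at chr17:35262993-35263022 on the plus strand. Those of B2m and H2-K1 lie upstream of the GENCODE gene, and that of H2-D1 lies inside it, since GENCODE starts H2-D1 farther upstream than RefSeq.
B2m: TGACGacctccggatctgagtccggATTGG
H2-K1: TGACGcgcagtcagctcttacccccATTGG
H2-D1: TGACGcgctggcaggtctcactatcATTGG

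The stretch of H2-K1 matches that of H2-D1 at 23 of 30 bases, while B2m matches H2-K1 at 13 and H2-D1 at 12. Upstream of it, both heavy chain genes held a kappa B type motif, GGGANTNCC, followed by an interferon type motif, GAANTGAAA read on the other strand. These are printed with the motifs in capitals, at chr17:34000429-34000457 on the minus strand for H2-K1 and chr17:35262924-35262952 on the plus strand for H2-D1.
H2-K1: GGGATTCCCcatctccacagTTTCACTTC
H2-D1: GGGATTCCCcatctcctcagTTTCACTTC

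These stretches are identical at 28 of 29 bases. GGGANTNCC stood in 3.95% of all windows and GAANTGAAA in 1.83%, and among the 8 genes in the table only the heavy chain genes held either. B2m instead held an interferon response type motif, GAAANNGAA, found in 8.56% of windows, at chr2:122147538-122147567 on the plus strand.
B2m: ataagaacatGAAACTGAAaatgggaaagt

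TGACG alone stood in 20.8% of windows and also in those of Psmb9 and Tap1, and CCAAT alone in 37.4% and also in those of Psmb9, Tap1 and Tapbp. Tap1 and Psmb9 point away from each other from starts 225 bases apart in RefSeq, so that 275 of the 300 bases of their windows are the same sequence. A match describes the letters in a window and no binding was measured.

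The heavy chain genes were lower in every DTA-1 library than in every isotype library. H2-K1, which encodes the K heavy chain, measured 626, 710.4 and 436.6 CPM in isotype libraries 1, 2 and 3, and 392, 398.5 and 377.4 CPM in DTA-1 libraries 1, 2 and 3. H2-D1, which encodes the D heavy chain, measured 631.1, 691.2 and 458.5 CPM with isotype and 418, 372.7 and 404.3 CPM with DTA-1. For both genes isotype library 3 was the lowest of its group and stood close above the DTA-1 range, and the DTA-1 libraries lay near each other. Mean H2-K1 was 591 ± 140.2 CPM with isotype and 389.3 ± 10.8 with DTA-1 (SD, n = 3 each). The log2 fold change of H2-K1, DTA-1 over isotype, was -0.60 (SE 0.24), and it did not pass the threshold of 0.05 (edgeR quasi-likelihood test, Benjamini-Hochberg adjusted p = 0.39). H2-D1 had a mean of 593.6 ± 120.8 CPM with isotype and 398.3 ± 23.3 with DTA-1 (SD, n = 3 each). Its log2 fold change was -0.58 (SE 0.22), also short of the threshold (edgeR adjusted p = 0.39).

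The heavy chain genes kept nearly the same ratio to each other throughout. The log2 ratio of H2-K1 to H2-D1 counts lay between -0.10 and 0.10 in all 6 libraries. These genes are near copies in parts. Of the 50-base windows of the longest coding transcript, 8.79% for H2-K1 and 14.3% for H2-D1 also occur in transcripts of other genes. Most of the shared H2-K1 windows are in H2-D1 (6.94%), and the largest share of H2-D1 is in H2-Q1 (7.4%), so reads may be divided between them and each value is uncertain to that extent.

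B2m encodes the light chain that every class I heavy chain needs at the cell surface. It measured 483.7, 582.5 and 322 CPM with isotype and 309.7, 323 and 410 CPM with DTA-1. The groups overlapped, since isotype library 3 lay inside the DTA-1 range and DTA-1 library 3 was above it. The log2 fold change was -0.41 (SE 0.27; edgeR adjusted p = 0.499), and it lay between -0.59 without isotype library 3 and -0.19 without isotype library 2. No 50-base window of B2m occurs in another gene's transcripts.

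The transporter genes gave unlike values. Tap1, which encodes the first subunit of the peptide transporter, measured 36.1, 50.5 and 27.9 CPM with isotype and 24.1, 20.4 and 20.1 CPM with DTA-1. Every DTA-1 library was below every isotype library. Its mean was 38.2 ± 11.4 CPM with isotype and 21.5 ± 2.22 CPM with DTA-1 (SD, n = 3 each), a log2 fold change of -0.83 (SE 0.24), 1.77-fold lower with DTA-1 and the largest difference among the 10 genes. It had the smallest p of the set and did not pass the adjustment (edgeR adjusted p = 0.39).

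Tap2, the second subunit, measured 32.7, 26.6 and 16.7 CPM with isotype and 18.4, 21.3 and 23.4 CPM with DTA-1. Here isotype library 3 was the lowest of all 6, and the other isotype libraries were the highest. The log2 fold change was -0.27 (SE 0.26; edgeR adjusted p = 0.641), and it came to -0.03 when isotype library 1 was left out and to -0.47 when isotype library 3 was. The log2 ratio of Tap1 to Tap2 counts was 0.14, 0.92 and 0.74 with isotype and 0.39, -0.07 and -0.22 with DTA-1. The ratio was looked at after the values of both genes were known and is given with no test. Part of the Tap2 exons, 14.1%, overlaps Gm15821 on the other strand. Whether the counting used strand is not stated in the labels, so reads of such pairs may be mixed.

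Tapbp encodes tapasin, the bridge between class I molecules and the transporter. It measured 134.3, 114.7 and 82.8 CPM with isotype and 63.4, 80.8 and 93.7 CPM with DTA-1. DTA-1 library 1 was the lowest and isotype library 1 the highest, and isotype library 3 fell within the DTA-1 range. The log2 fold change was -0.48 (SE 0.23; edgeR adjusted p = 0.409), and it was -0.30 without isotype library 1. An antisense gene, Gm19412, covers 24.9% of its exon bases.

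**Figure D1:**
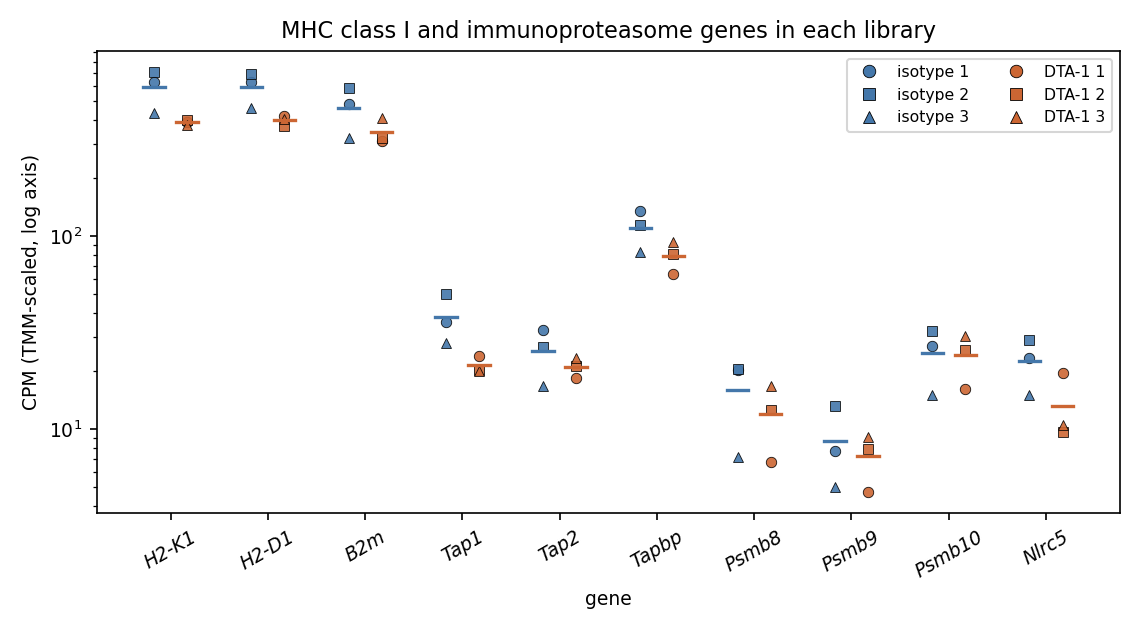
CPM of the 10 genes on a log axis, with isotype libraries in blue, DTA-1 libraries in orange, a marker shape for each replicate number and a bar at the group mean (n = 3 each). The groups are apart for H2-K1, H2-D1 and Tap1, and isotype library 3 (blue triangle) lies near the DTA-1 libraries for most genes.

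The immunoproteasome subunits overlapped between the groups in all 3 cases. Psmb8 encodes the inducible subunit that takes the place of the one from Psmb5. It measured 20.2, 20.5 and 7.21 CPM with isotype and 6.74, 12.6 and 16.8 CPM with DTA-1, so that isotype library 3 and DTA-1 library 1 were the low ones. The log2 fold change was -0.41 (SE 0.48; edgeR adjusted p = 0.699). It was -0.73 without isotype library 3 and -0.12 without DTA-1 library 1, so that single libraries moved it several-fold. Psmb9, whose product replaces that of Psmb6, measured 7.74, 13.3 and 5.01 CPM with isotype and 4.74, 7.92 and 9.11 CPM with DTA-1. The same libraries were lowest, isotype library 2 stood above all others, and the log2 fold change was -0.26 (SE 0.42; edgeR adjusted p = 0.79). Psmb10, whose product replaces that of Psmb7, measured 26.9, 32.2 and 15.1 CPM with isotype and 16.2, 25.6 and 30.5 CPM with DTA-1. Its means were nearly equal, 24.8 ± 8.76 and 24.1 ± 7.26 CPM (SD, n = 3 each), with a log2 fold change of -0.04 (SE 0.34; edgeR adjusted p = 0.967). Without isotype library 2, the signs of Psmb9 and Psmb10 turned, to log2 fold changes of 0.21 and 0.22, and without isotype library 3 they were -0.51 and -0.27. Psmb10 also turned to 0.04 without isotype library 1 and to 0.18 without DTA-1 library 1. Of the Psmb8 exon bases, 14.7% overlap the antisense gene Gm20496, and Tap1 and Psmb9 share 212 exon bases on opposite strands, which is 3.87% of Tap1 and 5.79% of Psmb9.

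Nlrc5 encodes the activator of class I transcription. It measured 23.4, 29.2 and 15 CPM with isotype and 19.7, 9.7 and 10.5 CPM with DTA-1. DTA-1 library 1 lay inside the isotype range, and the other DTA-1 libraries were below all isotype libraries. The log2 fold change was -0.76 (SE 0.36; edgeR adjusted p = 0.405), and it was -1.16 without DTA-1 library 1 and -0.51 without isotype library 2.

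Across the set, none of the 10 genes passed the test. Beside this count, edgeR called 0 of all 15763 genes tested (0%), with 2006 at an unadjusted p under 0.05, and limma-voom called 0, with 2172. DESeq2 called 180 genes (1.12% of 16084) and none of the 10. Its smallest adjusted p among them was 0.144, for Tap1, and those for H2-D1 and H2-K1 were 0.218 and 0.23. At an unadjusted edgeR p under 0.05, H2-K1, H2-D1 and Tap1 were lower with DTA-1, which is 3 of 10, beside 7.52% of all tested genes. That count rests on single libraries: it was 1, Tap1 alone, without isotype library 1, isotype library 2, DTA-1 library 2 or DTA-1 library 3, it was 2, Tap1 and Nlrc5, without DTA-1 library 1, and it was 6 without isotype library 3. The same 3 genes had every DTA-1 library below every isotype library, beside 9.38% of all tested genes. All 10 fitted fold changes were below 0, with a median of -0.45, beside 52.9% of all genes below 0 and a median of -0.03. These genes are regulated together and are not independent of each other, so their shared sign is a description of the 6 libraries. Scaling by library totals alone, which shifts the median of all genes to -0.19, put the median of the 10 at -0.63, all 10 still below 0. In bulk RNA, fewer cells that express these genes and less RNA per cell cannot be told apart.

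**Figure D2:**
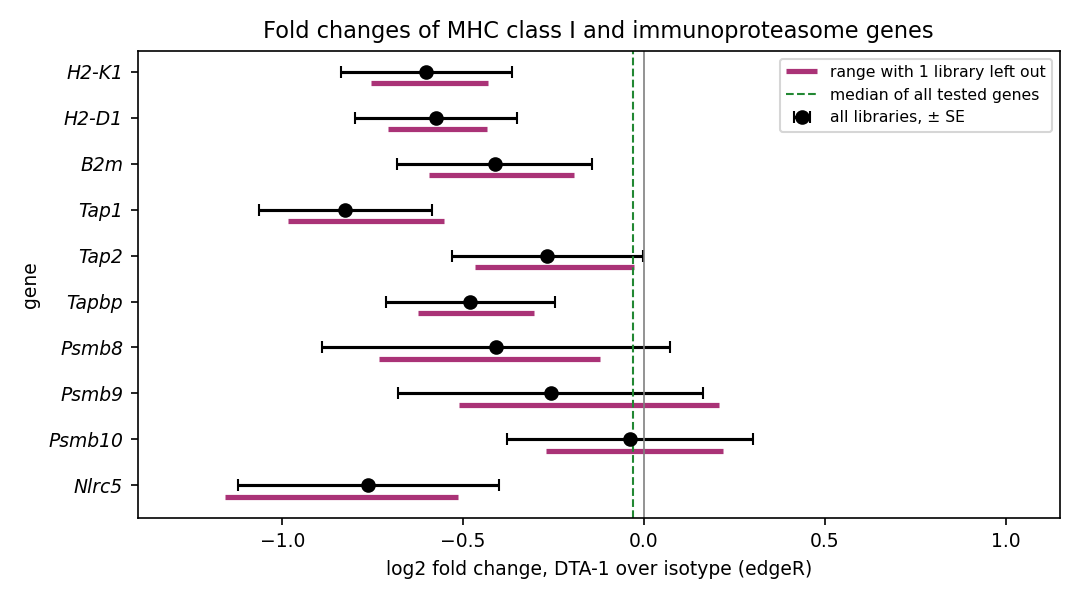
Fitted log2 fold change of each gene (points, DTA-1 over isotype, edgeR) with its standard error, and below it the range obtained with each of the 6 libraries left out in turn. The ranges of Psmb9 and Psmb10 cross 0 and that of Tap2 reaches -0.03, while the other 7 stay below 0; the dashed line is the median of all tested genes, -0.03.

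The isotype libraries were themselves spread widely. Summed over the 10 genes, the level was 2022, 2271 and 1387 CPM in isotype libraries 1, 2 and 3 and 1273, 1273 and 1396 CPM in DTA-1 libraries 1, 2 and 3. Isotype library 3 thus lay inside the DTA-1 range, and the other isotype libraries were far above it. Gene by gene, isotype library 2 exceeded all DTA-1 libraries for all 10 genes and isotype library 1 for 8. Isotype library 3 did so for 3, lay within the DTA-1 range for 5 and was below it for Tap2 and Psmb10. Without isotype library 3 the median log2 fold change of the 10 was -0.67, and without isotype library 2 it was -0.32. Without both isotype library 3 and DTA-1 library 1, a fit chosen after the data were seen, it was -0.50, with Nlrc5 at -1.36 and Tap1 at -1.08; edgeR called none of the 10 in that fit either.

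Per kilobase of exon, the class I molecule genes were far more abundant than the rest. B2m had the highest level, 360.2 to 677.4 CPM per kb over the 6 libraries, followed by H2-D1 at 144.5 to 268 and H2-K1 at 128.4 to 241.8. In all 6 libraries B2m was above H2-D1 and H2-D1 above H2-K1 on this scale, although the isotype ranges of the heavy chain genes overlapped. The length used is the union of all annotated exons of a gene, 2938 bases for H2-K1 and 2579 for H2-D1. Their longest coding transcripts have 1619 and 2102 bases, so the order of the heavy chain genes depends on the length chosen. Tapbp came next at 17.5 to 37 CPM per kb, and Psmb10 at 8.87 to 18.9, with their DTA-1 ranges overlapping. The low end held Tap1 (3.67 to 9.22 CPM per kb), Tap2 (4.43 to 8.65), Psmb8 (1.99 to 6.07), Nlrc5 (1.143 to 3.43) and Psmb9 (1.29 to 3.63). Neighbours in this last group overlapped in both treatment groups. Tap1 was above Tap2 in only 2 of the 6 libraries, and Nlrc5 above Psmb9 in only 3. These orders, too, depend on the length chosen.

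The inducible subunits were compared with the constitutive subunits they replace, as a ratio within each library that does not depend on scaling. Per kilobase of exon, Psmb8 stood at 13.5%, 17.1% and 6.12% of Psmb5 with isotype and at 5.24%, 10.6% and 11.3% with DTA-1. Psmb9 stood at 2.26%, 4.52% and 1.56% of Psmb6 with isotype and at 1.4%, 2.14% and 2.43% with DTA-1. Psmb10 stood at 66%, 90% and 36.5% of Psmb7 with isotype and at 35.7%, 51.8% and 62.7% with DTA-1. These shares use the union of all annotated exons, 1705 bases for Psmb10 and 3421 for Psmb7. Their longest coding transcripts have 1311 and 1160 bases. The size of a share therefore depends on the length chosen, while its comparison between libraries does not. In each pair isotype library 2 had the highest share and DTA-1 library 1 the lowest, with isotype library 3 next to it. Psmb5 shares 57.1% of its 50-base windows with other genes, mostly Gm3375 (49.4%), so its counts are uncertain.

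None of the 3 ratios differed beyond the spread of the libraries. On the log2 scale, the difference DTA-1 minus isotype was -0.39 for Psmb8 to Psmb5 (two-sided exact permutation test, p = 0.5, adjusted over the 3 ratios 0.5). For Psmb9 to Psmb6 it was -0.38 (exact permutation p = 0.5, adjusted 0.5), and it turned to 0.04 without isotype library 2. For Psmb10 to Psmb7 it was -0.30 (exact permutation p = 0.4, adjusted 0.5). With 3 libraries against 3 this test cannot give a p below 0.1, so a miss does not show that the ratios are alike.

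**Figure D3:**
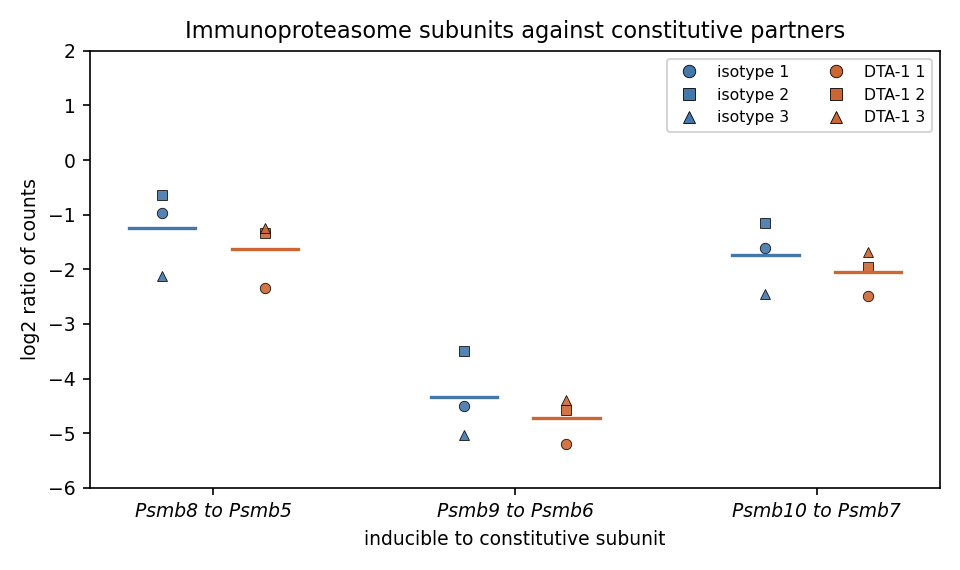
Log2 ratio of counts of each inducible subunit gene to its constitutive partner, by library, with bars at group means (n = 3 each). The groups overlap for all 3 ratios, and isotype library 3 (blue triangle) and DTA-1 library 1 (orange circle) are the lowest of their groups in each.

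The constitutive partners themselves varied less between libraries. Psmb5 measured 39.7, 32 and 31.4 CPM with isotype and 34.2, 31.6 and 39.6 CPM with DTA-1. Psmb6 measured 175.5, 150.2 and 164.1 CPM with isotype and 173.8, 189.2 and 191.9 CPM with DTA-1. Psmb7 measured 81.9, 71.8 and 83.2 CPM with isotype and 91.3, 99.3 and 97.7 CPM with DTA-1, so that every DTA-1 library was higher. None passed the test, with log2 fold changes of 0.03, 0.18 and 0.28 (edgeR adjusted p = 0.941, 0.586 and 0.409). Under scaling by library totals alone these were -0.13, 0.02 and 0.12, so the sign for Psmb5 flipped with the scaling, as it did without DTA-1 library 3 (-0.06).

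The remaining genes of the pathway were taken from lists by role, 109 genes of which 100 were tested, and edgeR called 0 of them in either direction. At an unadjusted p under 0.05, 6 of the 100 were lower with DTA-1 and 0 higher, beside 7.52% of all genes lower and 5.21% higher. Of 12 tested nonclassical class I genes, which encode class I relatives with narrower roles, 9 were below 0, with a median log2 fold change of -0.32. The one with the smallest p was H2-M2, seen with 19, 31 and 13 reads with isotype and 2, 4 and 3 reads with DTA-1, at a log2 fold change of -2.50 (edgeR adjusted p = 0.39). H2-T23, whose product presents signal peptides to NK cell receptors, measured 39, 42.1 and 24.2 CPM with isotype and 15.3, 30 and 32.4 CPM with DTA-1 (log2 fold change -0.44, edgeR adjusted p = 0.554, and -0.17 without DTA-1 library 1).

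Of 7 genes for peptide loading and trimming, 6 were below 0, with a median of -0.24. Calr, which encodes the chaperone calreticulin, measured 684.3, 526.9 and 392.1 CPM with isotype and 455.1, 354.4 and 350.7 CPM with DTA-1 (log2 fold change -0.47, edgeR adjusted p = 0.445, and -0.24 without isotype library 1). Pdia3, which encodes the disulfide isomerase of the loading complex, had the smallest p of that list, at a log2 fold change of -0.62 (edgeR adjusted p = 0.41), which was -0.35 without isotype library 1.

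The rest of the proteasome stood on the other side of 0 or near it. All 17 genes tested for the 19S regulator, the cap that unfolds substrates, were above 0 with a median of 0.20, and for 8 of them all DTA-1 values exceeded all isotype values, beside 8.6% of all tested genes. Psmc3 had the smallest p of that list (0.35, edgeR adjusted p = 0.43). With library totals alone, 11 of the 17 were above 0 and the median was 0.05. The 11 other core subunits had a median of 0.03, with Psma3 at 0.34 (edgeR adjusted p = 0.413), and that median turned to -0.13 with library totals alone. Of 9 assembly factors and activators, 6 were below 0, with a median of -0.10. Among these, the interferon-inducible activator genes Psme1 and Psme2 were at -0.10 and -0.25 (edgeR adjusted p = 0.84 and 0.592); Psme1 turned to 0.03 without DTA-1 library 1, and Psme2 was -0.12 without isotype library 1. Psme4, which encodes another activator, had the smallest p at 0.25 (edgeR adjusted p = 0.518).

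Genes of interferon gamma signalling gave a median of -0.16 over 11 tested, 8 of them below 0 (10 of 11 and a median of -0.35 with library totals alone). Irf1, a factor that binds class I promoters, measured 33.1, 28.4 and 18.8 CPM with isotype and 14.5, 24.1 and 19.6 CPM with DTA-1 (log2 fold change -0.47, edgeR adjusted p = 0.467, and -0.27 without isotype library 1). It was lowest in DTA-1 library 1, with isotype library 3 next. Socs1, an inhibitor of the pathway, had the smallest p of the list, with every DTA-1 library below every isotype library (log2 fold change -0.85, edgeR adjusted p = 0.39). The cytokine itself, Ifng, was seen with 0, 4 and 0 reads with isotype and 2, 1 and 0 reads with DTA-1, too few to compare.

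Interferon-induced genes had a median of -0.04 over 13 tested, 7 of them below 0, close to all genes. With library totals alone 11 of the 13 were below 0 and the median was -0.26, beside -0.19 for all genes. Gbp2, which encodes an interferon-induced GTPase, measured 25.7, 73.7 and 18.5 CPM with isotype and 16, 38.8 and 41.4 CPM with DTA-1 (log2 fold change -0.29, edgeR adjusted p = 0.826). The chemokine gene Cxcl10 had the smallest p of the list (-0.79, edgeR adjusted p = 0.582). Without isotype library 2, in which both were highest, Gbp2 turned to 0.56 and Cxcl10 to 0.11.

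Of 10 genes for proteins that bind class I and class II promoters, 7 were below 0, with a median of -0.19 (all 10 and -0.36 with library totals alone). Nfya, which encodes a subunit of the factor that binds the Y box printed above, had the smallest p, at -0.47 (edgeR adjusted p = 0.393). Ciita, the class II counterpart of Nlrc5, measured 2.54, 5.21 and 1.3 CPM with isotype and 0.739, 2.21 and 2.01 CPM with DTA-1 (log2 fold change -0.86, edgeR adjusted p = 0.536, and -0.19 without isotype library 2).

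Of 6 receptor genes for class I molecules, only Pirb passed the filter (log2 fold change -0.86, edgeR adjusted p = 0.618). It measured 20.1, 7.62 and 1.7 CPM with isotype and 2.96, 5.84 and 7.36 CPM with DTA-1, and its fold change turned to 0.23 without isotype library 1. Cd8a, which marks the T cells that read class I, was seen with 4, 14 and 8 reads with isotype and 0, 4 and 0 reads with DTA-1. It did not pass the filter, and these reads are too few to compare. The 6 MHC class II genes were all below 0, with a median of -0.69, lower than that of the class I set; H2-Ab1 had the smallest p (-0.86, edgeR adjusted p = 0.39, and -0.52 without isotype library 2).

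**Figure D4:**
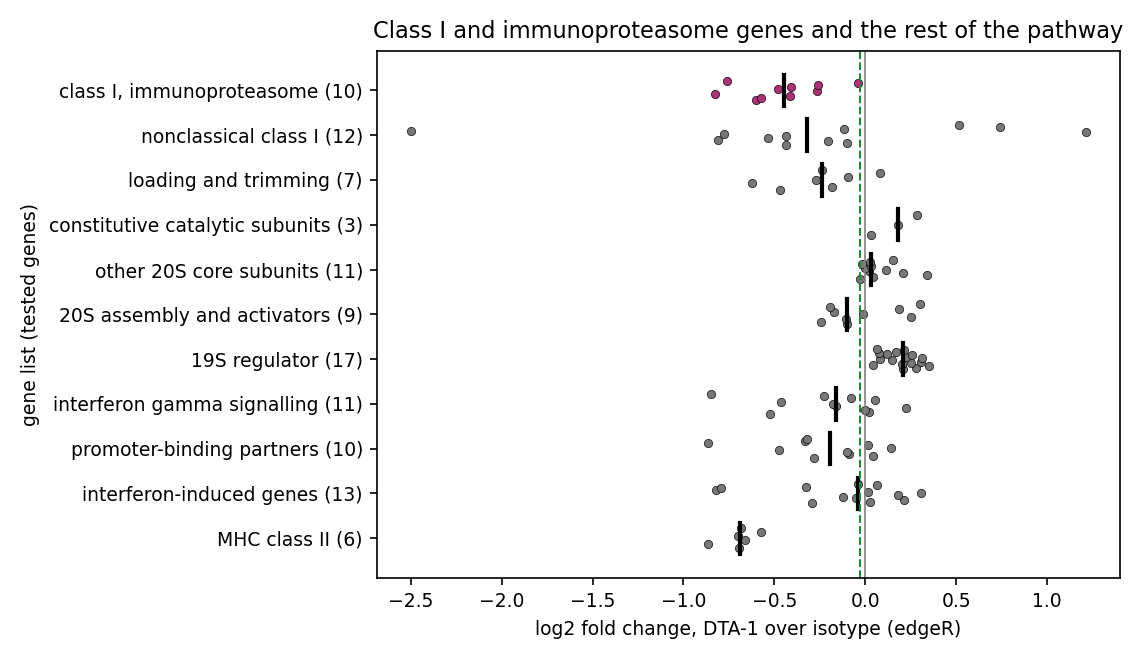
Fitted log2 fold changes (DTA-1 over isotype, edgeR) of the 10 genes and of each list of pathway genes, 1 point per tested gene, with black bars at list medians, a dashed line at the median of all genes and the number of tested genes in parentheses. The 10 genes have a median of -0.45, the 17 genes of the 19S regulator lie above 0 (11 of 17 with library totals alone), and no gene shown passed the adjusted test.

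Markers of the cell types in the tissue also differed between libraries, and their part in the class I values was not tested. Of 4 markers of all leukocytes, none was at 0, and their summed level was 153.8, 86.7 and 33.5 CPM with isotype and 40.7, 59.4 and 67.2 CPM with DTA-1. Isotype libraries 1 and 2 were highest, as they were for the class I set, and isotype library 3 was lowest. All 6 class II genes, which are expressed mainly in antigen-presenting cells, summed to 372.3, 563 and 246.2 CPM with isotype and 153, 221.8 and 343.5 CPM with DTA-1. T cell markers, 7 genes with none at 0, summed to 10.4 to 20.3 CPM with isotype and 5.18 to 9.8 CPM with DTA-1. Cd5 alone gave 10.5 of the 18.5 CPM in isotype library 1. Other counts were low, as for Cd3d with 12, 29 and 26 reads with isotype and 5, 12 and 16 with DTA-1. Singly, 3 of the 7 T cell genes had every DTA-1 library below every isotype library, and the others overlapped. The 5 neutrophil markers, with Ly6g at 0 in at least 1 library, summed to 3699 to 4801 CPM with isotype and 927.7 to 3311 CPM with DTA-1. The summed levels did not overlap between the groups for T cell and neutrophil markers, but did for leukocytes, class II and macrophages. By mean log2 CPM the neutrophil list did overlap, with isotype library 3 at 3.96 and DTA-1 library 1 at 4.04. Of all genes tested singly, 9.38% had every DTA-1 library below every isotype library. Red cell markers set DTA-1 library 2 apart, at 2665 CPM against 76.9 to 157.5 in the other libraries. Macrophage markers, 8 genes with none at 0, ranged in sum from 208.7 to 1101 CPM with isotype and from 235.2 to 1379 CPM with DTA-1. By mean log2 CPM they ranged from 4.19 to 6.22 with isotype and from 4.38 to 5.57 with DTA-1. Of the 8 fold changes, 7 were below 0 and 1 above it, with a median of -0.369. The 5 B cell markers were higher with DTA-1, at 0.216 to 2.26 CPM with isotype and 4.09 to 7.66 CPM with DTA-1, with Cd79a and Ms4a1 at 0 in at least 1 library.

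Epithelial and muscle markers differed between libraries as well, and edgeR called none of them. Basal squamous markers summed to 4562 to 16510 CPM with isotype and 3237 to 10950 with DTA-1, and 8 differentiated squamous markers to 17080 to 37550 and 5248 to 17930. By mean log2 CPM the differentiated list did not overlap, at 9.12 to 9.64 with isotype and 7.32 to 8.84 with DTA-1. All 8 of its genes were below 0 (median log2 fold change -1.495), 7 of them at an unadjusted edgeR p under 0.05, beside 7.52% of all genes. All 7 basal genes were below 0 too (median -0.849), none at that p. Striated muscle markers summed to 40870 to 86360 CPM with isotype and 91430 to 132800 with DTA-1, with every DTA-1 library higher. Isotype library 3, the lowest of its group for class I genes, had the most muscle of its group and the highest summed differentiated squamous level of all 6. By mean log2 CPM of the differentiated list, isotype library 2 was slightly above it, at 9.64 against 9.61. Removal of only the 11 striated muscle markers from the counts before scaling left the median of the 10 at -0.45. All other muscle transcripts stayed in the counts, and the part of muscle content in the class I values was not tested.

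**Figure D5:**
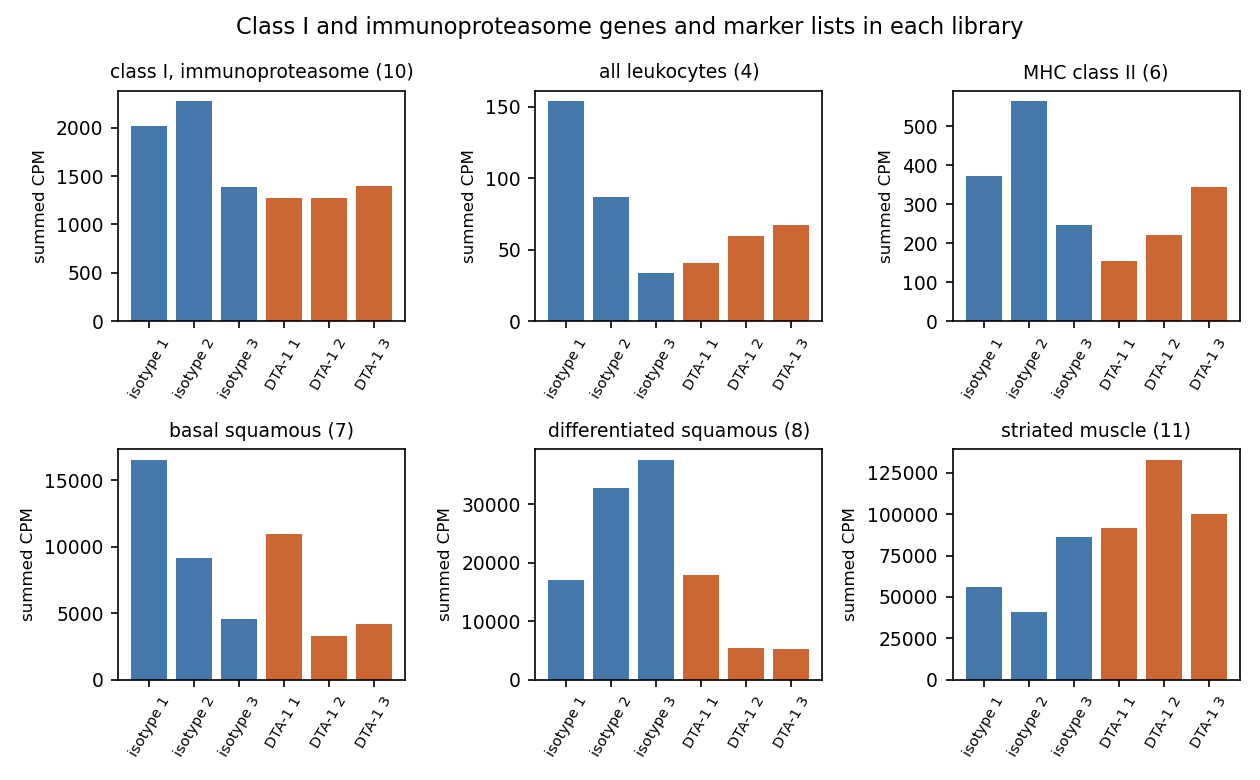
Summed CPM (bars from 0, 1 per library; blue isotype, orange DTA-1) of the 10 class I and immunoproteasome genes and of 5 lists, with the number of genes in parentheses. The class I panel is highest in isotype libraries 1 and 2, as are the leukocyte and class II panels, whereas striated muscle is lowest there.

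The profile of the set over the 6 libraries was also shared by genes with other roles. Each gene was compared with the mean profile of the 10 by the root mean square difference of centred log2 CPM, among 11131 candidates outside the lists. The nearest was Tpra1 at 0.081, which measured 26.7, 26.6 and 15.4 CPM with isotype and 14.1, 17.7 and 19.5 CPM with DTA-1. Id3, which encodes an inhibitor of helix-loop-helix transcription factors, followed at 0.088, then Ift140, Tvp23b and Deaf1 at 0.089, 0.102 and 0.11. Of the set itself, B2m was closest to the mean profile at 0.068 and Nlrc5 farthest at 0.436, so the 5 named genes followed the mean more closely than all members except B2m. With 6 libraries and so many candidates, near matches are a description only.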

How the data were processed

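PolyA RNA was measured in 6 libraries, 3 per group. The authors deposited whole-number read counts per Ensembl gene without normalization, and the submitters' processing notes name cutadapt 1.13, STAR, HTSeq 0.6.1p1 and DESeq2 1.14.1 with build mm10, without their settings here. Depth was 23147873 to 29065162 counts per library.

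Low genes were removed by filterByExpr at a minimum count of 10 and total of 15. After TMM scaling, edgeR 4.0.16 (R 4.3.3, robust quasi-likelihood fit) compared the groups, with Benjamini-Hochberg adjustment over 15763 genes at 0.05. DESeq2 1.42.0, limma-voom (limma 3.58.1), other scalings and filters, removal of the 11 striated muscle markers, a replicate block and each library left out were alternatives. Ratios within a library were tested by exact permutation (scipy 1.17.1). Code was tested on simulated data.

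Members and gene lists were chosen with earlier results of these data known. Named were all members, 13 pathway genes chosen for their role (1 of them is not reported here), the smallest-p gene of each pathway list, and the 5 genes most like the members whose mean log2 CPM was at least 2. Positions come from GENCODE M21 and promoters from RefSeq, both GRCm38.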

Additional observations from a re-analysis of the deposited data

How the results depend on the processing

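edgeR called 0 genes in all settings but 1: without DTA-1 replicate 1 it called 601, so the lowest and highest counts with 1 library left out were 0 and 601. DESeq2 called 180. None of the 10 class I and immunoproteasome genes was called under any of the 16 alternative settings. Of their 160 fold changes in these settings, 156 were negative. The other 4 were Psmb10 at 0.04, 0.22 and 0.18 when isotype 1, isotype 2 or DTA-1 1 was left out, and Psmb9 at 0.21 when isotype 2 was. With 1 library left out, Psmb10 thus ranged from -0.27 to 0.22 and Psmb9 from -0.51 to 0.21. The cause was not tested. The median of the 10 ranged from -0.67 to -0.32 with 1 library left out. With 1 library left out, the log2 ratio difference of Psmb8 to Psmb5 ranged from -0.83 to -0.04, of Psmb9 to Psmb6 from -0.72 to 0.044 (without isotype 2), and of Psmb10 to Psmb7 from -0.66 to -0.01, and the exact test could then not go below 0.2.

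Deviations of same-numbered libraries from their group means correlated at 0.02, -0.33 and -0.09. With 3 libraries per group these deviations depend on each other, so the values cannot show whether replicate numbers pair the samples. With the replicate block, edgeR called 0 genes, 1632 had an unadjusted p under 0.05, and the median of the 10 was -0.43; of H2-K1, H2-D1 and Tap1, only Tap1 kept an unadjusted p under 0.05. Leaving out isotype 3 and DTA-1 1, the pair of libraries most alike across groups, was added after seeing the data; it draws the groups apart by its construction, and it gave 0 calls, 4952 genes at an unadjusted p under 0.05 and a median of -0.50. The lowest count of any of the 10 in a library was 109.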
